A study of Homo sapiens with 6 samples.

Results

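A set of 10 circadian clock genes was examined in SCC-9, an established line of tongue squamous carcinoma cells, with and without knockdown of Ki67. The genes are the repressors and the transcription factors at the output of the clock, PER2, PER3, CRY1, CRY2, NR1D1, NR1D2, DBP, TEF, BHLHE40 and CIART. They were chosen by symbol, and all 10 were found among the 25349 genes with counts in the series. One group of 3 libraries, named siKi, came from cells that received siRNA aimed at exon 7 of MKI67, which encodes Ki67. The other group of 3, named NS, was given a nonspecific siRNA. Both were grown with serum and hydrocortisone and lipofected with 10 nM siRNA on day 0 and once more on day 2, and their RNA was harvested on day 4. The methods list several siRNAs against exon 7 and the sources used here do not say which one these libraries received, nor whether replicates were separate cultures, so p-values measure the spread between libraries, which may be technical. Neither the time of day at harvest nor a synchronization of the cells is given, so each library is a single point of any rhythm.

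The circadian clock is a feedback loop of transcription. The activators CLOCK and BMAL1 (ARNTL) bind E-box elements and switch on the PER and CRY genes, whose proteins return to the nucleus and repress the same activators. A further loop runs through the REV-ERB nuclear receptors (NR1D1 and NR1D2), which repress ARNTL at ROR response elements (RORE), and the output factors DBP and TEF act on D-box elements. In skin and oral epithelium the clock is known to time cell division and to respond to glucocorticoids.

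E-boxes, D-boxes and RORE are the elements that the clock reads, so the promoters of PER3, CRY2 and BHLHE40, the genes that passed the test between siKi and NS, are shown with those of PER2 and CIART, which did not pass but held a palindromic D-box and 3 E-boxes. The sequences are RefSeq windows on GRCh38.p14, from 250 bases before to 50 bases after the annotated start, and 14 windows matched the 10 genes. Capitals mark the E-box CACGTG, the variant E-box CACGTT, the D-box TTATGTAA, its palindromic form TTACGTAA and the RORE core AGGTCA, each searched on both strands. For the RORE only this core was searched, without the bases that flank it. No match overlapped another.
BHLHE40 (chr3:4979187-4979486, plus strand): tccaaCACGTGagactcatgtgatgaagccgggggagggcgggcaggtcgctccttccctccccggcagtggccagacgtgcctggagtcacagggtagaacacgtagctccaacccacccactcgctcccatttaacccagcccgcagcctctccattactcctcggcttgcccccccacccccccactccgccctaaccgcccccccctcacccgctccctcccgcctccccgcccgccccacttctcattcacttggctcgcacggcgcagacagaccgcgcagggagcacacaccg
PER3, upstream start (chr1:7784041-7784340, plus strand): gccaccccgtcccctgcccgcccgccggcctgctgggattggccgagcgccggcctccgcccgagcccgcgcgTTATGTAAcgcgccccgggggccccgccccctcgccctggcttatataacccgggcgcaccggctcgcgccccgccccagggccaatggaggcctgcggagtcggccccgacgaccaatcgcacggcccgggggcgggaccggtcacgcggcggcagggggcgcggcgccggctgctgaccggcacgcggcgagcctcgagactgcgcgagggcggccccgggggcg
CRY2, downstream start (chr11:45847225-45847524, plus strand): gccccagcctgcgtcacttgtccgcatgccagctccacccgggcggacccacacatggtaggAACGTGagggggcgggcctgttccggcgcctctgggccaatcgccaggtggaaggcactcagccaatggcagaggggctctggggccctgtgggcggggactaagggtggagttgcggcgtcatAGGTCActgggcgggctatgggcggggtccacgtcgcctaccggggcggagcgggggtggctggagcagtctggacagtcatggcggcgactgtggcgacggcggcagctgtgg
PER2 (chr2:238288561-238288860, minus strand): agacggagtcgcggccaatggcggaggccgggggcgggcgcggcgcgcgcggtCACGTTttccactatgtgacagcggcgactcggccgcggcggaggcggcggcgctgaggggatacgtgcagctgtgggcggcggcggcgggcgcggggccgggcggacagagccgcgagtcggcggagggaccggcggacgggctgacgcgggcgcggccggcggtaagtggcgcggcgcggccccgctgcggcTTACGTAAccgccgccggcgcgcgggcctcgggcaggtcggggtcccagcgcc
CIART (chr1:150282304-150282603, plus strand): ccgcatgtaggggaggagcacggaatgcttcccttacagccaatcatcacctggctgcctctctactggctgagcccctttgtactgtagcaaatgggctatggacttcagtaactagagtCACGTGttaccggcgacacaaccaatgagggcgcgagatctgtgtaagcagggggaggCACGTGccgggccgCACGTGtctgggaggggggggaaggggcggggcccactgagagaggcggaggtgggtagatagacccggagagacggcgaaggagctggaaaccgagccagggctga
The window of CIART held 3 E-boxes, at bases 122, 180 and 194, and that of BHLHE40 held 1, at base 6. The PER2 window held a variant E-box at base 54 and a palindromic D-box at base 248, which spans the start. The upstream PER3 window held a D-box at base 74 and no E-box of either form. The downstream CRY2 window held a variant E-box at base 63, on the other strand, and a RORE core at base 187. The upstream CRY2 window, not shown, held a RORE core at base 189. Across the 14 windows, CACGTG was found in 5 (those of CIART, BHLHE40, NR1D2 and TEF) and CACGTT in 4 (PER2, CRY1, CRY2 and NR1D1), while 7.26% and 5.34% of all 35116 windows held them. TTATGTAA was found for PER3 and NR1D2 (0.886% of all windows), TTACGTAA for PER2 (0.125%) and AGGTCA for CRY2 (13.8%). DBP had no match in its window. A match describes letters and was not tested for binding, and the genes that passed and those that did not both carried E-boxes.

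The libraries held 25608192 to 29550264 counts on genes, and the counts of the 10 genes lay between 75 and 8148 per library. Levels are given as counts per 1000000 (CPM) on library sizes scaled by the TMM method. MKI67, the targeted gene, had 1029 to 1077 CPM in the NS libraries and 108 to 124 CPM in the siKi libraries. These counts are per gene and do not separate the isoforms with and without exon 7. The 8 markers of squamous epithelium that were examined were all expressed, at 28.0 CPM or more in every library, and their summed level was 23291 to 24807 CPM with NS and 21325 to 27813 CPM with siKi. KRT14 was the largest part of this sum. The markers moved apart, since 5 passed as lower with siKi (CDH1, EPCAM, SFN, KRT5 and TP63, with log2 fold changes from -1.03 to -0.33) and KRT17 as higher (0.70). Of 9 markers of leukocytes, endothelium and fibroblasts, 7 were below 1 CPM in every library or not analysed here, and the summed level of the list was 16.8 to 20.03 CPM with NS and 18.2 to 24.4 CPM with siKi, mainly from COL1A1. siKi replicate 1 stood apart. A chi-square of its counts against those of siKi replicates 2 and 3 gave 61.1 and 72.7 per degree of freedom, against 6.22 between siKi replicates 2 and 3 and 5.54 to 6.17 among NS libraries. Values that it moves are given with and without it.

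To see whether the output and repressor genes of the clock changed with the knockdown of Ki67, the siKi libraries were compared with the NS libraries in edgeR (quasi-likelihood test, Benjamini-Hochberg adjustment over all 14661 tested genes). PER3 fell, and BHLHE40 and CRY2 rose, while the other 7 genes did not pass the threshold of 0.05. All 10 genes were deep enough to be tested. The 3 that passed are 30% of the genes, and 34.0% of all tested genes passed. In each direction, 2 of the 10 rose and 1 fell, against 18.0% and 16.0% of all genes. None of the 10 also had a log2 fold change beyond 1, a size that 12.2% of all tested genes reached with a pass, 7.38% above 1 and 4.84% below -1. By DESeq2 the count was also 0. The siKi and NS libraries did not overlap for 4 of the genes (PER3, CRY2, BHLHE40 and TEF), against 47.6% of all genes. CRY2 and BHLHE40 were higher with siKi, as were 24.9% of all genes, and PER3 and TEF lower, as were 22.7%. The median log2 fold change was 0.03 over the 10 genes and 0.08 over all tested genes. In a culture, less RNA of a gene in each cell and fewer cells that express it cannot be told apart. With 3 libraries against 3 the exact permutation test of a single gene cannot go below p = 0.1.

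PER2 and PER3 are period proteins, which join the CRY proteins in the repressor complex. PER3 (ENSG00000049246.15, chromosome 1 from 7784291 to 7845177, plus strand) had 29.3, 31.5 and 32.9 CPM in the NS libraries and 14.9, 18.6 and 17.5 CPM in the siKi libraries. Every siKi library lay below every NS library. The mean was 31.2 ± 1.84 CPM (SD, n = 3) with NS and 16.99 ± 1.88 CPM (SD, n = 3) with siKi. This was a log2 fold change of -0.88 with a standard error of 0.137 (adjusted p = 0.00064 by edgeR). PER3 passed in each of the 13 alternative settings, with log2 fold changes from -0.95 to -0.71. PER2 (ENSG00000132326.12, chromosome 2 from 238244044 to 238290102, minus strand) had 19.7, 18.9 and 18.9 CPM with NS and 24.6, 16.8 and 18.2 CPM with siKi. siKi replicate 1 was the highest of the 6 libraries and siKi replicate 2 the lowest, so the groups overlapped. Its log2 fold change was 0.05, with a 95% interval from -0.30 to 0.41 (adjusted p = 0.83 by edgeR), and without siKi replicate 1 it was -0.19 and did not pass either (adjusted p = 0.10 by edgeR). Exons of both genes overlap exons annotated on the other strand. For PER3 these belong to UTS2 (868 bases) and a long noncoding RNA (482 bases), and for PER2 to a long noncoding RNA (188 bases), none of which was analysed here.

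CRY1 and CRY2 are the cryptochromes, the main repressors of the CLOCK-BMAL1 activator. CRY2 (ENSG00000121671.12, chromosome 11 from 45847118 to 45883248, plus strand) had 23.8, 21.5 and 22.5 CPM with NS and 39.2, 27.5 and 27.3 CPM with siKi. All siKi libraries lay above all NS libraries, and siKi replicate 1 was far above the rest. Its mean went from 22.6 to 31.3 CPM, and the log2 fold change was 0.47 with a standard error of 0.160 (adjusted p = 0.040 by edgeR). Without siKi replicate 1 it was 0.22 and still passed (adjusted p = 0.036 by edgeR), where 58.4% of all tested genes passed. CRY2 did not pass without any 1 of the NS replicates (adjusted p = 0.096 to 0.15 by edgeR), with RLE factors or with DESeq2 (adjusted p = 0.069 by each). CRY1 (ENSG00000008405.12, chromosome 12 from 106991364 to 107093549, minus strand) had 10.2, 9.89 and 10.98 CPM with NS and 9.55, 11.1 and 10.5 CPM with siKi. The libraries of both groups were interleaved. The log2 fold change was 0.01 with a 95% interval from -0.33 to 0.34, so a change within this interval was not excluded.

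**Figure D1:**
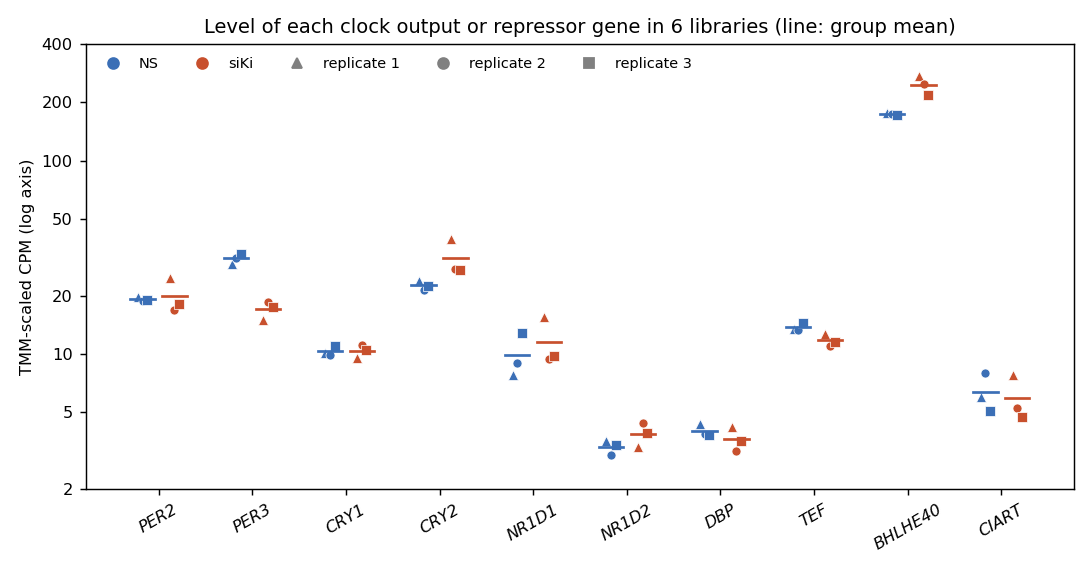
TMM-scaled CPM (log axis) of the 10 clock genes in each NS (blue) and siKi (red) library, with a horizontal line at the group mean and a symbol for the replicate number. PER3 is lower in all siKi libraries (14.9 to 18.6 against 29.3 to 32.9 CPM), BHLHE40 and CRY2 are higher, and siKi replicate 1 (triangle) is the highest siKi library for 7 of the 10 genes.

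NR1D1 and NR1D2 encode REV-ERB alpha and REV-ERB beta, heme-binding nuclear receptors that repress genes with a RORE. NR1D1 (ENSG00000126368.6, chromosome 17 from 40092793 to 40100589, minus strand) had 7.82, 9.01 and 12.9 CPM with NS and 15.6, 9.46 and 9.78 CPM with siKi. The NS libraries were spread almost as widely as the siKi libraries, with coefficients of variation of 26.7% and 29.6%, the largest in each group among the 10 genes. Its log2 fold change was 0.23 with a standard error of 0.239 (95% interval from -0.30 to 0.75, adjusted p = 0.49 by edgeR), and without siKi replicate 1 it was -0.10. NR1D1 shares 473 exonic bases with THRA, the thyroid hormone receptor gene on the other strand, whose mean level was 124 CPM with NS and 132 CPM with siKi. Whether strand was used in counting is not stated, and the share of NR1D1 counts that come from THRA was not tested. NR1D2 (ENSG00000174738.13, chromosome 3 from 23945286 to 23980617, plus strand) had 3.56, 3.002 and 3.41 CPM with NS and 3.31, 4.42 and 3.89 CPM with siKi. siKi replicate 1 lay inside the NS range and the other 2 siKi libraries lay above it. Its log2 fold change was 0.22 with a standard error of 0.209 (95% interval from -0.24 to 0.68, adjusted p = 0.44 by edgeR).

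DBP and TEF are PAR bZIP transcription factors, which carry the rhythm to genes with D-boxes. DBP (ENSG00000105516.11, chromosome 19 from 48630030 to 48637379, minus strand) had 4.37, 3.84 and 3.82 CPM with NS and 4.18, 3.15 and 3.53 CPM with siKi. siKi replicates 2 and 3 lay below the NS range and siKi replicate 1 inside it. Its log2 fold change was -0.15 with a standard error of 0.204 (95% interval from -0.59 to 0.30, adjusted p = 0.61 by edgeR), and without siKi replicate 1 it was -0.32 (adjusted p = 0.18 by edgeR). DBP shares 661 exonic bases with SPHK2, a sphingosine kinase gene on the other strand, at mean levels of 5.09 CPM with NS and 6.78 CPM with siKi, above those of DBP, and its part in the counts of DBP was not tested. TEF (ENSG00000167074.15, chromosome 22 from 41367333 to 41399326, plus strand) had 13.4, 13.4 and 14.5 CPM with NS and 12.7, 10.98 and 11.6 CPM with siKi. Each siKi library lay below each NS library, by a small margin. Its log2 fold change was -0.23 with a standard error of 0.147 (95% interval from -0.55 to 0.09) and did not pass (adjusted p = 0.25 by edgeR). Without siKi replicate 1, TEF had a log2 fold change of -0.35 and passed (adjusted p = 0.011 by edgeR), in a comparison that called 29.5% of all genes lower.

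BHLHE40 (DEC1) is a helix-loop-helix repressor that binds E-boxes and is also switched on by hypoxia, serum and growth factor signals. BHLHE40 (ENSG00000134107.5, chromosome 3 from 4979437 to 4985323, plus strand) had 176, 173 and 172 CPM with NS and 275, 247 and 218 CPM with siKi. The NS libraries lay within a few CPM of each other, and all siKi libraries lay above them. The mean was 174 ± 2.14 CPM (SD, n = 3) with NS and 247 ± 28.6 CPM (SD, n = 3) with siKi. This was a log2 fold change of 0.51 with a standard error of 0.115 (adjusted p = 0.0059 by edgeR). BHLHE40 shares 451 exonic bases with BHLHE40-AS1 on the other strand, which had 34 counts over all 6 libraries. It passed in all 13 alternative settings, with log2 fold changes from 0.36 without siKi replicate 1 to 0.67 with library totals alone. CIART (CHRONO) represses CLOCK-BMAL1 through an action apart from the cryptochromes. CIART (ENSG00000159208.16, chromosome 1 from 150282543 to 150287093, plus strand) had 5.99, 7.97 and 5.07 CPM with NS and 7.79, 5.25 and 4.74 CPM with siKi. The groups overlapped, with NS replicate 2 the highest library and siKi replicate 3 the lowest. Its log2 fold change was -0.10 with a standard error of 0.240 (95% interval from -0.62 to 0.43, adjusted p = 0.78 by edgeR). Without siKi replicate 1 it was -0.41 (adjusted p = 0.056 by edgeR), and without NS replicate 2 it was 0.09, so its size and sign changed with single libraries.

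Levels of different genes were compared as CPM per kilobase of merged exons in the GENCODE annotation. On this scale BHLHE40 was by far the most abundant of the 10 genes with NS, at 49.4 ± 0.608 CPM per kilobase (SD, n = 3), a level above that of 93.7% of all tested genes. PER3 (3.84 ± 0.227), NR1D1 (3.76 ± 1.01) and CRY2 (3.65 ± 0.188) followed, and these neighbours in the order overlapped between libraries. TEF had 2.93, PER2 2.71, CIART 2.23 and CRY1 2.16 CPM per kilobase as means with NS, where PER2 overlapped CIART and CIART overlapped CRY1. DBP (0.619 ± 0.0482) and NR1D2 (0.574 ± 0.0501) were the lowest and overlapped each other, at levels above 25.3% and 24.2% of all tested genes. Merged exons count every annotated exon, and for DBP they covered 6485 of the 7350 bases of the gene. The length of the transcripts expressed in these cells was not measured and no other divisor was tried, so the level of DBP per kilobase rests on this divisor. In CPM, without a divisor, NR1D2 (3.33) and DBP (4.01) also had the lowest means of the 10 genes with NS. With siKi, PER3 had 2.09 ± 0.232 CPM per kilobase, below CRY2 at 5.05 ± 1.10 and NR1D1 at 4.41 ± 1.30.

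The rest of the clock was read from 4 lists of genes, the activators, the other repressors and bZIP factors, the regulators of clock proteins, and genes known to be driven by the clock. Of these 33 genes, 29 were tested and 11 passed, 5 higher and 6 lower with siKi, which is 37.9% against 34.0% of all tested genes. HLF and FBXL21 were not analysed here. Among the activators, ARNTL (BMAL1) rose from 16.3 to 32.3 CPM (means, log2 fold change 0.99, adjusted p = 0.00033 by edgeR), while its partner CLOCK fell from 13.1 to 5.97 CPM (log2 fold change -1.14, adjusted p = 0.00062 by edgeR). The paralogue ARNTL2 fell by 0.76 on the log2 scale (adjusted p = 0.028 by edgeR), and its value in siKi replicate 1, 10.9 CPM, was under those of siKi replicates 2 and 3 (23.5 and 22.7 CPM). Without siKi replicate 1 its log2 fold change was -0.54, and it did not pass without any 1 of the NS replicates. NPAS2 and RORA did not pass. All 3 tested genes of the second list passed with log2 fold changes beyond 1, as did 5 of the 29 tested genes of the 4 lists together and 12.2% of all tested genes. PER1, a period gene that responds directly to glucocorticoids, rose by 1.09, and NFIL3, which represses through D-boxes, rose by 1.41. BHLHE41 (DEC2), the closest relative of BHLHE40, had a log2 fold change of -1.28. Of the 13 tested regulators of clock proteins, FBXW11, a ubiquitin ligase subunit acting on PER proteins, rose by 0.68, while CSNK1E, a casein kinase acting on PER proteins, fell by 0.45 and NONO, a partner of PER proteins, fell by 0.35. NONO passed in 4 of the 13 alternative settings. The other 10 regulators did not pass. Of 8 clock-driven genes, NAMPT, an enzyme of NAD synthesis, rose by 0.64, and G0S2, an inhibitor of triglyceride lipase, had a log2 fold change of -1.42. NAMPT had 51.0 CPM in siKi replicate 1, inside the NS range of 48.6 to 51.1 CPM, and 89.0 and 92.2 CPM in siKi replicates 2 and 3. Without siKi replicate 1 the log2 fold change of NAMPT was 0.80, and it passed in 8 of the 13 settings. Without siKi replicate 1, 20 of these clock genes passed, where 58.4% of all tested genes did, and without NS replicate 1, 7 passed, where 21.4% of all tested genes did.

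**Figure D2:**
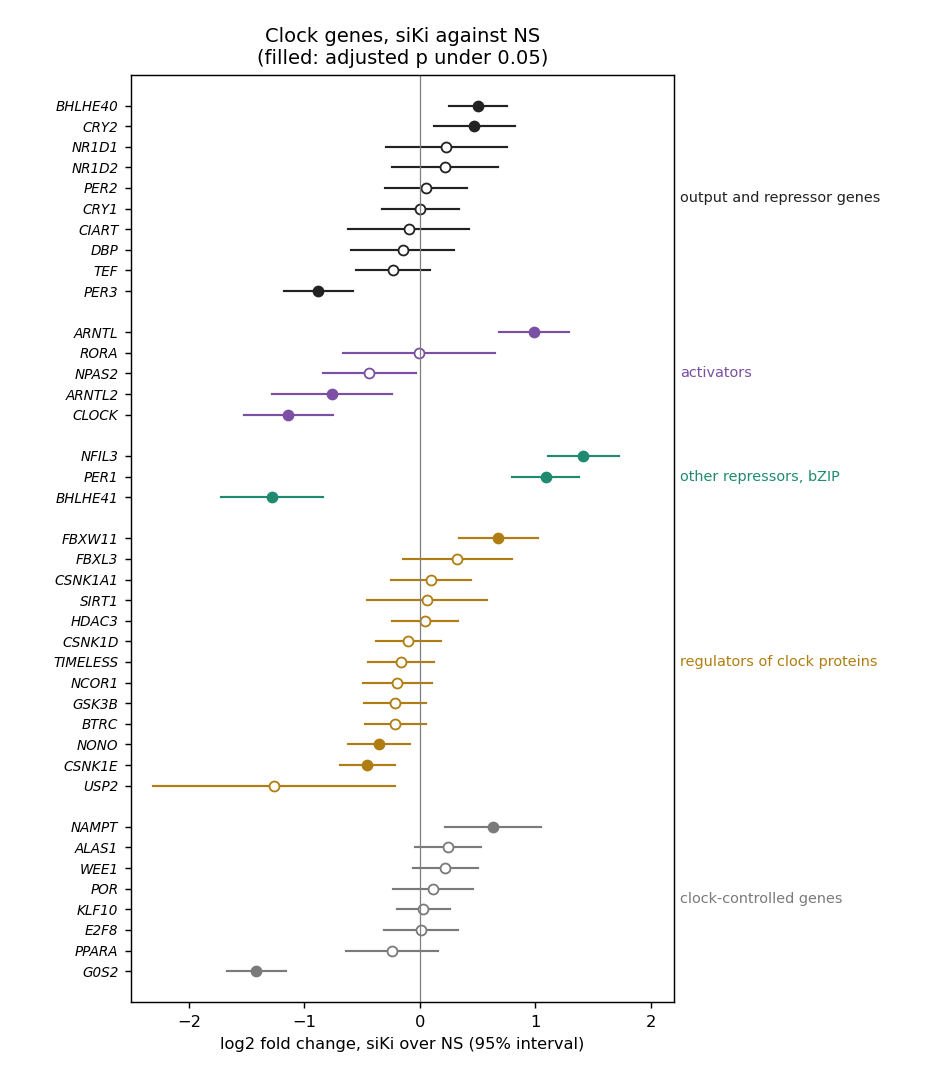
Log2 fold change of siKi over NS with its 95% interval for the 10 output and repressor genes (black) and the other tested clock genes, by list, with filled circles for an adjusted p under 0.05 by edgeR. In the upper group 3 genes are filled, PER3 at -0.88, CRY2 at 0.47 and BHLHE40 at 0.51. Of the other filled circles, NFIL3 at 1.41, PER1 at 1.09, ARNTL at 0.99, FBXW11 at 0.68 and NAMPT at 0.64 lie to the right of all 10. CLOCK at -1.14, BHLHE41 at -1.28 and G0S2 at -1.42 are filled and lie to the left of all 10.

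Related genes of one family were set against each other within each library, as the log2 ratio of their CPM, which does not depend on how libraries are scaled. These pairs were chosen after the values had been seen. The ratio of PER2 to PER3 was -0.57, -0.74 and -0.80 in the NS libraries and 0.72, -0.14 and 0.06 in the siKi libraries. The ratios did not overlap between groups, and the mean difference was 0.92. The ratio of PER1 to PER3 moved by 1.96, from -0.23 ± 0.144 (SD, n = 3) with NS to 1.73 ± 0.352 (SD, n = 3) with siKi. The ratio of BHLHE40 to BHLHE41 was 4.87, 4.84 and 4.98 with NS and 6.65, 6.69 and 6.70 with siKi. Here siKi replicate 1 lay close to the other siKi libraries, and the mean difference was 1.79. The ratio of CRY1 to CRY2 was lower with siKi by 0.45 on the log2 scale, at -1.13 ± 0.0971 (SD, n = 3) with NS and -1.57 ± 0.402 (SD, n = 3) with siKi. Each of these 4 pairs had p = 0.1 in a two-sided exact permutation test, the lowest value the design can give, and 6 pairs were examined. For PER1 to PER3 and BHLHE40 to BHLHE41 this outcome was fixed in advance, since each gene alone separated the groups, in opposite directions. The shifts of PER2 to PER3 and CRY1 to CRY2 mainly restate those of PER3 (-0.88) and CRY2 (0.47). PER2 and CRY1 had log2 fold changes of 0.05 and 0.01. These p-values therefore add no support to the tests of single genes. The ratios of NR1D1 to NR1D2 and of DBP to TEF overlapped between groups, with differences of 0.01 and 0.08 (exact permutation test, p = 1 and p = 0.5).

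**Figure D3:**
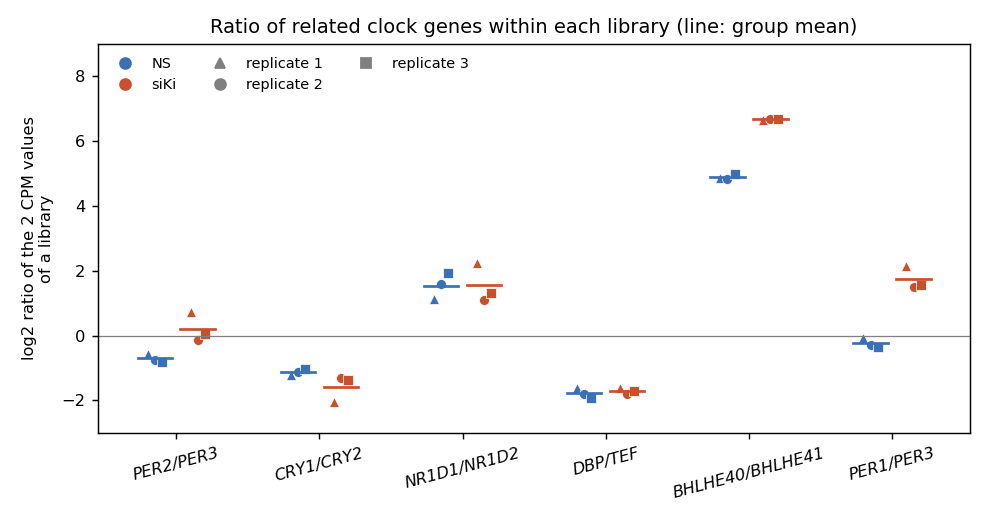
Log2 ratio of the CPM of related clock genes in each NS (blue) and siKi (red) library, with a line at the group mean and a symbol for the replicate number. The BHLHE40 to BHLHE41 ratio lies between 6.65 and 6.70 in the siKi libraries and between 4.84 and 4.98 in the NS libraries, while the DBP to TEF and NR1D1 to NR1D2 ratios overlap.

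The genes also varied among the siKi libraries. The coefficient of variation was larger with siKi than with NS for all 10 genes, which was also so for 75.0% of all tested genes. It was 20.8% with siKi and 2.44% with NS for PER2, and 21.7% and 5.15% for CRY2. siKi replicate 1 was the highest siKi library for 7 of the 10 genes and the lowest for PER3, CRY1 and NR1D2, against 43.2% and 44.4% of all tested genes. Relative to the mean of siKi replicates 2 and 3 on the log2 scale, it was higher by 0.69 for NR1D1, 0.64 for CIART, 0.52 for CRY2, 0.49 for PER2 and 0.33 for DBP. A margin above 0.3 was found for these 5 of the 10 genes and for 28.4% of the 14643 genes with counts in all siKi libraries. The libraries were not grouped by this difference and no test was made of it.

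**Figure D4:**
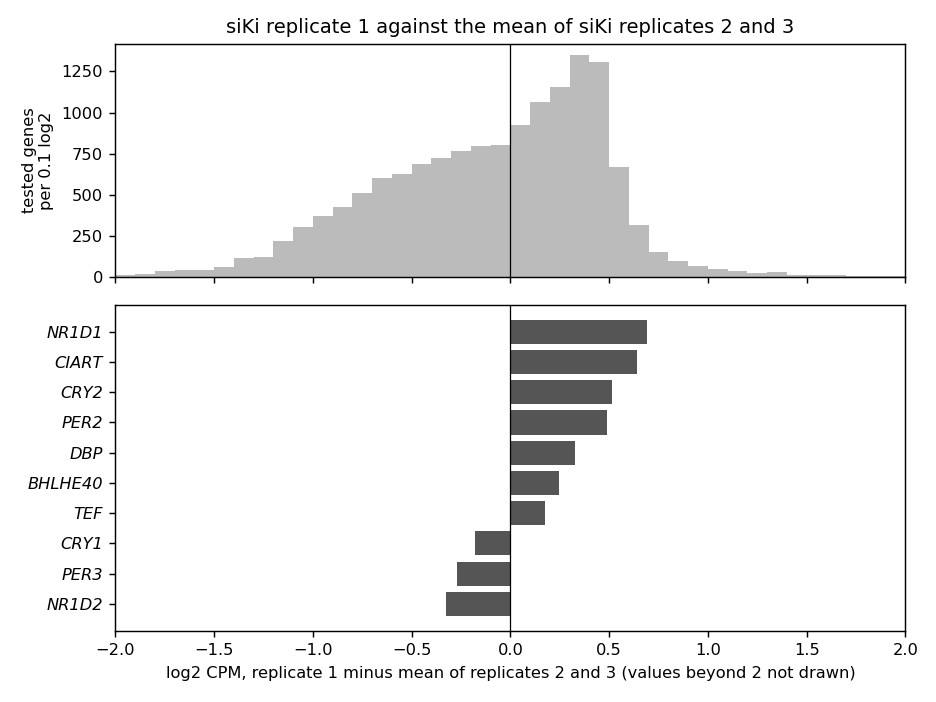
Log2 CPM of siKi replicate 1 minus the mean of siKi replicates 2 and 3, as a histogram over 14643 genes in steps of 0.1, within the range of the axis (upper panel), and as bars for the 10 clock genes (lower panel). NR1D1, CIART, CRY2, PER2 and DBP lie above 0.3, as do 28.4% of 14643 genes, and NR1D2 lies lowest at -0.33.

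The pattern of PER3, the gene of smallest p-value among the 10, was compared with those of the 14651 tested genes outside the 10 by Pearson's r of log2 CPM over the 6 libraries. LRBA, FADS1, CCND2, NHS and NIP7 were most alike, with r from 0.997 to 0.999 and log2 fold changes from -2.02 to -0.53. As the points share their groups, r was above 0.9 for 9.14% of these genes, and the likeness is a description. Across the settings tried, PER3 and BHLHE40 kept their direction and passed in all 13, CRY2 kept its direction and passed in 8, and TEF passed in 1. PER2, CRY1, NR1D1, NR1D2, DBP and CIART passed in none.

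**Figure D5:**
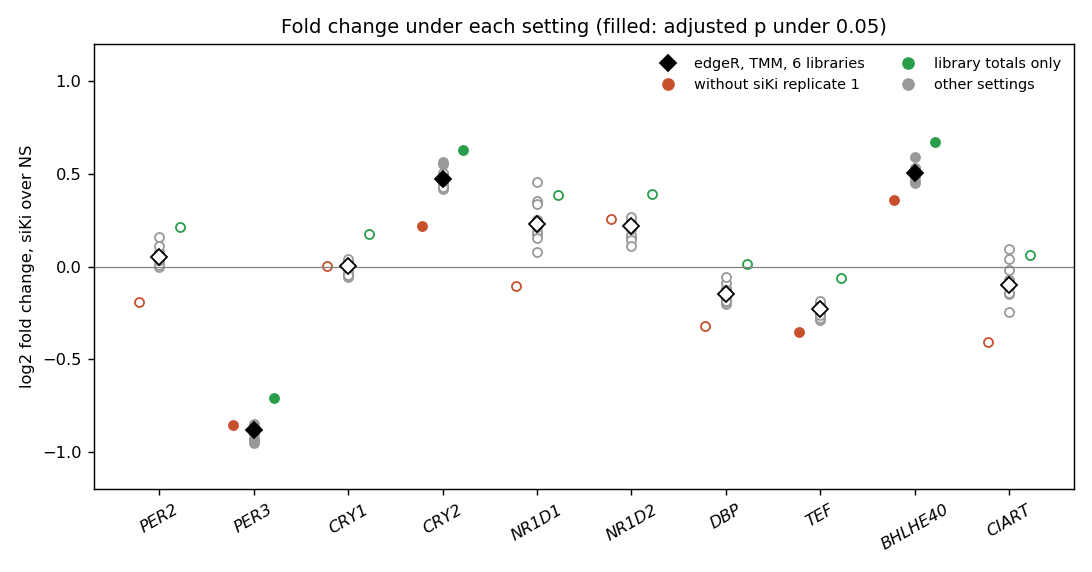
Log2 fold change of siKi over NS for each of the 10 clock genes by edgeR on 6 libraries (diamond) and under 13 other settings (circles), filled for an adjusted p under 0.05. PER3 (-0.95 to -0.71) and BHLHE40 (0.36 to 0.67) are filled throughout, CRY2 (0.22 to 0.63) is filled in 8 of the 13, and the values of PER2, CRY1, NR1D1, DBP and CIART lie on both sides of 0.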

How the data were processed

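mRNA of SCC-9 cells was measured by stranded RNA-seq in 3 NS and 3 siKi libraries, grouped by their titles. The authors deposited whole-number read counts per gene without normalization. The submitters' processing notes name HISAT2, DESeq2 and GRCh38 without roles or versions. The counting tool, annotation and use of strand are not given in the sources used here.

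Genes were kept by filterByExpr (14661 of 25349), scaled by TMM and tested with edgeR 4.0.16 (R 4.3.3, glmQLFit with robust dispersions and glmQLFTest), with Benjamini-Hochberg adjustment over all tested genes and a threshold of 0.05. The scripts were tested on simulated data. Alternatives were DESeq2 1.42.0, other scalings and filters, a block on the replicate number, and each library left out. Positions, exon lengths and overlaps came from GENCODE 44 on GRCh38, to which 25267 gene identifiers were matched without version, and motifs from RefSeq promoters. A pseudocount of 0.02 CPM was used for the correlation with PER3. The ratios, levels per length and the comparison of siKi replicate 1 were chosen after seeing the data. The genes and lists were chosen with earlier results of these data known. All 10 genes are named, other clock genes where they passed, and the 5 genes most like the one of smallest p-value. Python 3.11.15 and scipy 1.17.1 gave ratios and permutation tests. Standard errors were taken from the fold change and its F statistic, and 95% intervals from them.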

Additional observations from a re-analysis of the deposited data

How the results depend on the processing

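Of the 10 clock genes, 3 passed in the reported comparison and 2 to 4 in the others. With DESeq2 or RLE factors 1 gene rose (BHLHE40), since CRY2 was lost, and 1 fell. Leaving out 1 library at a time gave 2 to 4 genes, 1 or 2 of them higher and 1 or 2 lower, and none had a log2 fold change beyond 1 in any setting. The other clock genes that passed numbered 11, and 7 to 20 when 1 library was left out. All genes that passed numbered 4990, between 3153 (without NS replicate 3) and 8765 (without siKi replicate 1), and between 4645 and 5662 in the other settings. The cause was not tested. MKI67 had log2 fold changes from -3.27 to -3.04.

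With library totals alone the median log2 fold change over all genes moved up by 0.169, and 71.2% of the calls were higher with siKi, against 52.9%. NONO passed in 4 of 13 settings, NAMPT in 8, ARNTL2 in 9 and CSNK1E in 12. Deviations from the group means had correlations from -0.0521 to -0.0205 between same-numbered libraries, and from -0.0372 to 0.0609 between the others. No pairing by replicate number was seen. With 3 libraries per group, and siKi replicate 1 far from the others, these correlations cannot exclude a pairing. With the replicate block 3 of the 10 genes and 10 of the other clock genes passed, and 4947 genes in all.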
